A study of Mus musculus with 42 samples.

Results

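White adipose tissue (WAT) of 7 mice given VAAM was compared with that of 7 mice given water, which are 14 of the 42 arrays of the series. The members were chosen by the tissue and treatment in the array titles, with no use of the measured values. VAAM is a mixture of free amino acids in the proportions found in the larval saliva of *Vespa* hornets. All 14 mice were males of the ddY stock, an outbred line, 5 weeks old on arrival and with free access to food, and each array holds the RNA of 1 mouse. Both groups were dosed by feeding tube once a day, 5 times in all, at 37.5 μL per g of body weight, the VAAM group with a 1.8% solution and the control group with water alone. Food was taken away shortly before the last dose, and the tissue was collected 4 h after it, so both groups had been without food for several hours. The labels do not say from which depot the white fat came. Liver and brown adipose tissue (BAT) arrays of the same design, 14 each, are used only where a value in WAT is set beside them. By the paper's methods all tissues were collected from the same mice, so these arrays are not a second set of animals.

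White adipocytes take up glucose and fatty acids after a meal, store them as triacylglycerol in a single large lipid droplet, and release fatty acids and glycerol between meals. Noradrenaline starts this release through cyclic AMP and protein kinase A, while insulin holds it back. The tissue also secretes hormones such as leptin and adiponectin, and it holds endothelial cells, fibroblast-like progenitors, macrophages and lymphocytes, with a sheet of mesothelium on its surface.

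Each array gave 1 value per probe set on a log scale, taken as log2. The summary used by the authors leaves most probe sets almost without spread: the median SD over the 14 WAT arrays was 1.41e-05. A difference on this scale is not a fold change. Each difference is therefore given in units of the pooled SD within groups, VAAM minus water, as SD ± standard error (n = 7 mice per group), and values of single mice are distances from the water mean in the same SD. Each gene is read from its brightest probe set in WAT, by the mean over 14 arrays, which gave 18193 genes from 45037 probe sets. The tests are limma over all probe sets, with adjustment by the Benjamini-Hochberg method, and a two-sided exact permutation of the 14 mice, in which 0.000583 is the smallest p possible.

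The tissue matched its label. The mean level of the adiponectin gene *Adipoq* was 14.39 on the log2 scale in WAT and 5.89 in liver, and that of the fatty acid binding protein gene *Fabp4* was 14.63 against 8.00. Leptin (*Lep*) stood at 10.93 in WAT against 7.14 in BAT, and *Ucp1*, the uncoupling protein of brown fat, at 6.36 in WAT against 14.22 in BAT. The array of VAAM mouse 1 stood apart. Of 43 gene and marker lists, 23 had their lowest mean and 4 their highest in this mouse. Its mean over 16 adipocyte genes was −2.55 SD from the mean of all 14 mice, where the other VAAM mice lay between −0.21 and 0.72 SD and the water mice between −0.57 and 0.86 SD. Its mean over 13 epididymis markers was 2.14 SD, followed by water mouse 1 at 1.31 SD and water mouse 2 at 0.52 SD, while the other 11 mice lay between −0.67 and 0.34 SD. List medians whose sign or size rests on VAAM mouse 1 are given with and without it, and the plot of list medians gives both for every list. In whole tissue, fewer cells of a type and less RNA per cell cannot be told apart.

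By limma, 0 of 45037 probe sets were higher and 0 lower in WAT of the VAAM mice at an adjusted p under 0.05 (0% called in either direction), and the smallest adjusted p was 0.9998. At an unadjusted p under 0.05, 744 probe sets were higher (1.65%) and 948 lower (2.1%). Of the 18193 genes, 291 were higher (1.6%) and 338 lower (1.86%) at that level. After the deposited values were quantile normalized again, the split of the probe sets was 14 higher and 74 lower. This step moved values by a median of 53.6 within-group SD. With it, 20 of the 25 higher and 0 of the lower genes named below with an unadjusted p under 0.05 changed sign. The shares of genes given above are the background for the counts below, and no gene named here is called after adjustment. The 7 values of VAAM lay wholly above those of water for 7 genes (0.0385%), which were *A330023F24Rik*, *Noc4l*, *Efna3*, *Srrm4os*, *Serpina1f*, *Ccdc106* and *BC048679*. They lay wholly below for 3 genes (0.0165%), *Rnf167*, *Ube2b* and *Nipa1*. Of these 10 genes, *Serpina1f*, *Ccdc106*, *BC048679* and *Nipa1* were named after their values had been seen. A random division of the mice into 7 and 7 separates a given gene, in either direction, at a rate of 0.000583. The share of genes separated here is close to that rate.

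Among the genes with a higher mean in the VAAM group, *Srrm4os*, a long noncoding RNA gene opposite the splicing factor gene *Srrm4*, had the widest separation of the 12 with the smallest p. Its water values ran from −1.38 to 1.13 SD with a median of 0.27, and its VAAM values from 2.12 to 4.92 SD with a median of 3.61. The lowest VAAM mouse was thus above the highest water mouse, with a difference of 3.46 ± 0.886 SD (exact p 0.000583). For *Noc4l*, which encodes a protein of ribosomal small subunit assembly, water ranged from −1.29 to 1.17 SD with a median of −0.10, and VAAM from 1.32 to 4.13 SD with a median of 2.93. The groups were separate here as well, by a narrower gap. For *Efna3*, a ligand of Eph receptors, the water values lay between −1.09 and 1.12 SD (median 0.10) and the VAAM values between 1.12 and 4.12 SD (median 3.07), so that the groups touched without overlap.

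*Mttp* encodes the microsomal transfer protein that loads lipid onto apolipoprotein B and is also found in adipocytes. Its water values ran from −1.50 to 1.40 SD (median 0.17) and its VAAM values from 0.11 to 3.33 SD (median 2.30). In 6 of 7 VAAM mice it lay above the water median, with a difference of 2.10 ± 0.686 SD (exact p 0.0035). *Hspb3*, a small heat shock protein, differed by 2.36 ± 0.719 SD, from water values between −0.90 and 1.30 SD to VAAM values between 0.90 and 4.70 SD. *Igll1*, the surrogate light chain of early B cells, differed by 2.71 ± 0.769 SD, although 6 of the 11 B cell markers had a higher mean and 5 a lower one. The others of the 12 were *A330023F24Rik*, *Rfpl4*, the olfactory channel subunit *Cnga4*, the epididymal lipocalin *Lcn5*, the heart transcription factor *Irx4* and *Gm29538*, between 1.94 and 2.62 SD. Several of these are genes of other organs. Mean log2 levels were 5.94 for *Rfpl4*, 6.29 for *Srrm4os*, 6.31 for *Cnga4*, 6.43 for *Hspb3*, 6.51 for *Irx4*, 6.62 for *Efna3* and 6.83 for *Igll1*. The others of the 12 lay between 7.03 and 10.00, and *Ucp1* stood at 6.36 in WAT. The whole range of *Srrm4os* over the 14 arrays was 6.515e-06, so a difference of several SD can be minute on the log2 scale.

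Among the genes with a lower mean, *Rnf167*, a ubiquitin ligase of endosomes, had water values between −0.31 and 0.64 SD (median −0.14) and VAAM values between −4.99 and −0.82 SD (median −2.41). All 7 VAAM mice lay below the lowest water mouse, with a difference of −2.50 ± 0.739 SD (exact p 0.000583). The ubiquitin-conjugating enzyme genes *Ube2b* (−2.10 ± 0.686 SD) and *Ube2d2a* (−1.98 ± 0.67 SD) were also among the 12 lower genes with the smallest p. For *Ube2b* the VAAM values, from −3.88 to −1.30 SD, lay below the water values, from −1.06 to 2.44 SD. The adherens junction protein *Afdn* differed by −2.20 ± 0.698 SD, the protocadherin *Pcdh17* by −2.27 ± 0.708 SD and the transmembrane protein *Crim1*, which binds bone morphogenetic proteins, by −2.28 ± 0.709 SD. In each of these 3 genes, 0 of 7 VAAM mice exceeded the water median, and the groups overlapped. *Slpi*, a secreted inhibitor of leukocyte proteases, had water values from −1.14 to 1.52 SD and VAAM values from −3.33 to −0.17 SD. *Myct1*, an endothelial gene, differed by −1.96 ± 0.667 SD, and *Dnd1*, *Sfmbt1*, *Flii* and *Gatad2b* by about −2 SD.

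**Figure D1:**
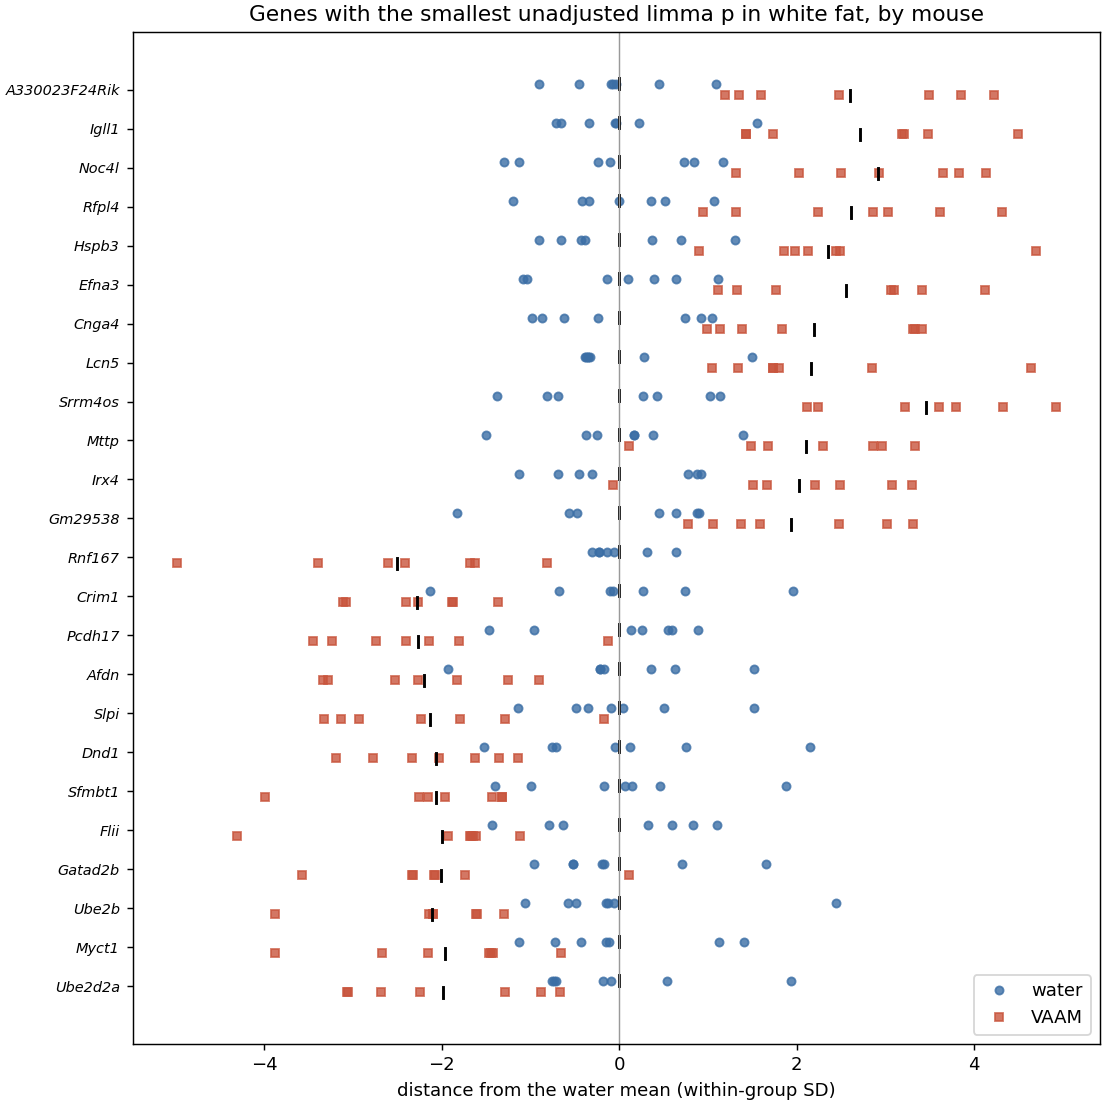
Distance of each mouse from the water mean in within-group SD (horizontal axis) for the 12 higher and 12 lower genes with the smallest unadjusted limma p in WAT; circles are 7 water mice, squares 7 VAAM mice and black ticks the group means. The groups are separate in *A330023F24Rik*, *Noc4l*, *Efna3*, *Srrm4os*, *Rnf167* and *Ube2b* and overlap in the other 18 genes.

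The genes that define white adipocytes differed little. Of 16 measured, 0 passed an unadjusted p under 0.05, 1 had a higher mean and 15 a lower one, with a median of −0.30 SD. Without VAAM mouse 1 the median was 0.17 SD, with 12 higher and 4 lower means. *Adipoq* stood at −0.38 ± 0.54 SD, with water between −0.90 and 0.69 SD, VAAM mouse 1 at −3.25 SD and 5 of 7 VAAM mice above the water median. *Lep* differed by −0.62 ± 0.549 SD (exact p 0.272), and 0 of 7 VAAM mice lay above its water median, although the groups overlapped from −1.30 to 0.13 SD. The nuclear receptor *Pparg*, the master regulator of fat cells, stood at −0.29 ± 0.538 SD.

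Among 22 adipokine and receptor genes, 1 was lower and 1 higher at an unadjusted p under 0.05. The lower one was *Adipor1*, a receptor of adiponectin. Its water values ran from −1.55 to 1.49 SD (median 0.12) and its VAAM values from −2.86 to −0.65 SD (median −2.01), which placed all 7 VAAM mice below the water median, with a difference of −1.69 ± 0.636 SD (exact p 0.00932). The other adiponectin receptor, *Adipor2*, stood at 0.17 ± 0.536 SD. The higher one was the cytokine gene *Il6* (1.16 ± 0.585 SD, exact p 0.0507), in which 6 of 7 VAAM mice exceeded the water median.

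Triacylglycerol is built by acylation of glycerol phosphate or of monoacylglycerol, and 0 of 17 measured genes of these steps passed the unadjusted threshold. The last enzyme, *Dgat2*, had the lowest difference (−0.96 ± 0.569 SD, exact p 0.0991), and 1 of 7 VAAM mice exceeded the water median. *Dgat1*, which catalyses the same step, stood at 0.11 ± 0.535 SD. The monoacylglycerol acyltransferases stood at −0.93 ± 0.567 SD for *Mogat2* (exact p 0.111) and at 0.48 ± 0.544 SD for *Mogat1* (exact p 0.386). In *Mogat1* the VAAM values reached from −1.98 to 1.54 SD, wider than the water values of −1.22 to 0.97 SD.

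Glycerol phosphate and its shuttle of reducing equivalents into mitochondria were read from 13 genes, of which 2 were lower at an unadjusted p under 0.05. *Gpd2*, the mitochondrial glycerol phosphate dehydrogenase, had water values from −1.41 to 1.21 SD and VAAM values from −3.09 to 0.16 SD, and 1 of 7 VAAM mice exceeded the water median. *Mdh1*, the cytosolic malate dehydrogenase, differed by −1.31 ± 0.598 SD (exact p 0.035). The cytosolic partner of *Gpd2*, *Gpd1*, stood at −0.84 ± 0.561 SD, and the glycerol channel *Aqp7* at −0.80 ± 0.559 SD, neither past the threshold. The median of the list was −0.32 SD, and −0.11 SD without VAAM mouse 1.

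Lipolysis and lipid droplet genes gave 0 of 20 past the threshold and a median of 0.04 SD, which was 0.31 SD with 18 higher means without VAAM mouse 1. The triacylglycerol lipase *Pnpla2* stood at −0.21 ± 0.536 SD, its coactivator *Abhd5* at 0.45 ± 0.542 SD and its inhibitor *G0s2* at 0.60 ± 0.548 SD. The droplet protein *Cidea*, better known from brown fat, had the lowest difference of this list (−1.07 ± 0.578 SD, exact p 0.0705), and 0 of 7 VAAM mice exceeded the water median.

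Of 21 genes of fatty acid uptake and activation, 2 were lower at an unadjusted p under 0.05. *Vldlr*, the receptor of very low density lipoprotein, had water values from −1.65 to 1.54 SD (median 0.20) and VAAM values from −2.89 to −0.99 SD (median −1.48), a difference of −1.72 ± 0.64 SD (exact p 0.0105). All 7 VAAM mice lay below the water median, within a narrower span than the water mice. *Lmf1*, which matures lipoprotein lipase, differed by −1.79 ± 0.648 SD (exact p 0.00641), with 1 VAAM mouse, at 0.22 SD, above the water median. Lipoprotein lipase itself (*Lpl*) stood at −0.43 ± 0.542 SD and the fatty acid carrier *Cd36* at −0.42 ± 0.541 SD. The median of the list was −0.00 SD, and 0.12 SD without VAAM mouse 1.

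Fatty acid synthesis, elongation and desaturation gave 0 of 28 genes past the threshold, between −0.84 and 0.93 SD. *Fasn* stood at −0.68 ± 0.552 SD, *Acaca* at −0.81 ± 0.559 SD and *Insig1*, which restrains the lipogenic transcription factors of the SREBP family, at 0.93 ± 0.567 SD. Phospholipid synthesis gave 1 of 22 higher, *Pisd*, which makes phosphatidylethanolamine in mitochondria (1.31 ± 0.598 SD, exact p 0.0268, 7 of 7 VAAM mice above the water median). Glucose uptake and glycolysis gave 0 of 36, with the glucose transporter *Slc2a4* at −0.39 ± 0.54 SD and the glucose 6-phosphate transporter *Slc37a4* at 0.68 ± 0.552 SD (exact p 0.231).

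Mitochondrial genes leaned to lower means, and the lean depended on VAAM mouse 1. Of 24 genes of fatty acid oxidation, 0 passed the threshold and 22 had a lower mean (median −0.34 SD), which became 11 of 24 and 0.12 SD without this mouse. Of 45 genes of the respiratory chain, 2 had an unadjusted p under 0.05, both lower, *Ndufb10* of complex I (−1.40 ± 0.606 SD) and cytochrome c, *Cycs* (−1.22 ± 0.59 SD). Their median moved from −0.29 to −0.07 SD without the mouse. Of 17 genes of brown and beige fat, 0 passed, and the beige marker *Tmem26* had the highest difference (1.06 ± 0.577 SD, exact p 0.074).

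Of the receptors and enzymes that handle cyclic AMP, 27 of 35 listed genes were measured, and 0 were higher and 3 lower at this unadjusted level. *Gnas*, the stimulatory G protein subunit that couples hormone receptors to adenylyl cyclase, had water values from −1.26 to 1.63 SD (median −0.29) and VAAM values from −3.05 to −0.38 SD (median −1.90). All 7 VAAM mice lay below its water median (−1.74 ± 0.642 SD, exact p 0.00758). *Adcy9*, an adenylyl cyclase, differed by −1.54 ± 0.621 SD (exact p 0.00816), and again 0 of 7 VAAM mice exceeded the water median. *Ptger3*, the prostaglandin receptor that inhibits adenylyl cyclase in fat cells, differed by −1.24 ± 0.591 SD. The median of the list was −0.34 SD, and −0.24 SD without VAAM mouse 1. The mean of this list ran against the epididymis marker mean, with VAAM mouse 1 lowest here and highest there. Over the 14 mice, which share their libraries, these means correlated at −0.92, and at −0.82 without VAAM mouse 1. The relation was not particular to this list. Adipokines and their receptors correlated at −0.93 (−0.83 without VAAM mouse 1), adipocyte genes at −0.89 (−0.73) and clock genes at −0.75 (−0.70). In the other direction, the ATF4 list correlated at 0.76 (0.51) and heat shock chaperones at 0.69 (0.61). The part of the epididymis markers in any of these lists was not tested.

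Immediate early genes are transcribed within minutes of a hormonal or other stimulus, and many of them respond to cyclic AMP. Of 32 measured, 4 were higher (1.6% of all genes were) and 1 lower at an unadjusted p under 0.05, and 24 had a higher mean, with a median of 0.20 SD against 0.00 SD over all genes. With 1 mouse left out the median lay between 0.07 SD (without VAAM mouse 5) and 0.33 SD (without water mouse 1), and without VAAM mouse 1 it was 0.32 SD. *Egr3*, a zinc finger transcription factor, had water values from −1.30 to 1.33 SD (median 0.06) and VAAM values from 0.07 to 3.30 SD (median 1.66), a difference of 1.65 ± 0.632 SD (exact p 0.0111). *Sik1*, a kinase that restrains cyclic AMP-driven transcription, had water values from −1.36 to 1.84 SD (median −0.25) and VAAM values from 0.85 to 2.38 SD (median 1.68), a difference of 1.64 ± 0.631 SD (exact p 0.014). *Dusp1*, a phosphatase that switches off MAP kinases, ran from −1.15 to 1.59 SD in water and from 0.29 to 2.88 SD in VAAM (1.51 ± 0.617 SD, exact p 0.0186). In these 3 genes and in *Atf3*, a stress-responsive repressor (1.23 ± 0.59 SD, exact p 0.0286), the VAAM mice all exceeded the median of the water group, and the groups overlapped. These 4 genes are among the higher named genes, most of which changed sign after the quantile step given above. The lower gene was *Gadd45b*, a growth arrest gene (−1.45 ± 0.611 SD, exact p 0.0181).

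The promoters of the 5 genes are shown where RefSeq (GRCm38.p6) gave one, since these genes are known for response elements close to the start of transcription. The 250 bases before the start were searched on both strands for the cyclic AMP response element TGACGTCA and for its first 5 bases, the core motif TGACG, which the full element contains. The element occurs in 1.55% of 32851 RefSeq mouse promoters of this length, and the core motif in 17.8%. Of the 32 list genes, 25 had a promoter, of which 2 held the full element and 17 the core motif. The list was made of immediate early and cyclic AMP-induced genes, so these counts describe the list and do not bear on the VAAM difference. Capitals mark the core motifs and the full element, on the strand of the gene from 5′ to 3′. The *Dusp1* promoter (chr17:26508473-26508722, minus strand) holds 1 full element, the *Atf3* promoter (chr1:191183334-191183583, minus strand) a core motif on the other strand 7 bases before the start, and the *Gadd45b* promoter (chr10:80929841-80930090, plus strand) neither.
Dusp1: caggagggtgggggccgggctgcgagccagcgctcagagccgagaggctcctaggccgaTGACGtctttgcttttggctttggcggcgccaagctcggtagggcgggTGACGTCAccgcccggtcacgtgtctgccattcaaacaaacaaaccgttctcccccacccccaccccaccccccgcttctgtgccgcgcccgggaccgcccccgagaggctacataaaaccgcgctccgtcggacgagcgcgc
Atf3: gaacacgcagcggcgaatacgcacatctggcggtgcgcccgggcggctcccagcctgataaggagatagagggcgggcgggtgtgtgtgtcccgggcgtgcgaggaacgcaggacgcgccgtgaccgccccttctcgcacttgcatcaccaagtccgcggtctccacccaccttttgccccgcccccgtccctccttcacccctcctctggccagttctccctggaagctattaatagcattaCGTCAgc
Gadd45b: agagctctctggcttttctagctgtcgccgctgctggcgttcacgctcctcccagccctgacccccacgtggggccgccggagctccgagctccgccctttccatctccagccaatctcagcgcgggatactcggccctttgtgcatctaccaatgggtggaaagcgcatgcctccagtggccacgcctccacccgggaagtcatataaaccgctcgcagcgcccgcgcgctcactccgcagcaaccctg

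**Figure D2:**
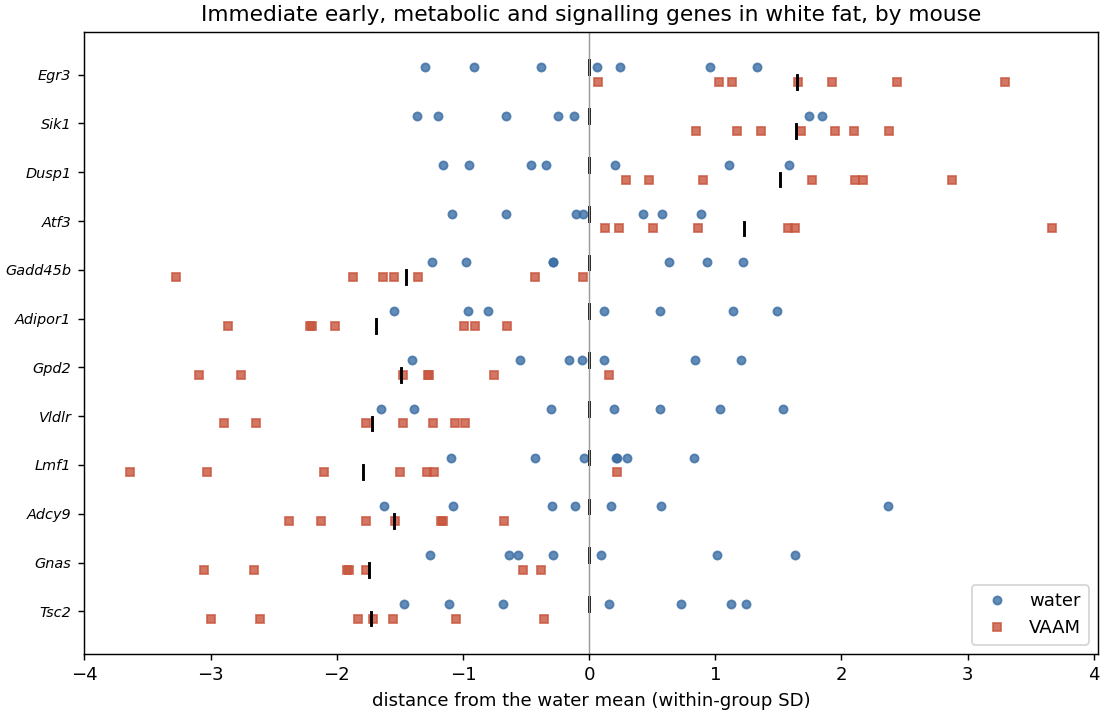
Distance of each mouse from the water mean in within-group SD (horizontal axis) for 5 immediate early genes and 7 genes of metabolism and signalling in WAT; circles are water mice, squares VAAM mice and black ticks the group means. The *Sik1* values of the VAAM mice lie between 0.85 and 2.38 SD and the *Vldlr* values between −2.89 and −0.99 SD, and in all 12 genes the groups overlap.

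Insulin and growth factor signalling gave 1 of 28 genes past the threshold, *Igf2r*, the clearance receptor of IGF2 (−1.38 ± 0.604 SD, exact p 0.0245, 0 of 7 VAAM mice above the water median). The insulin receptor substrate *Irs1* stood at 0.63 ± 0.55 SD. Glucocorticoid-responsive genes gave 1 of 22, *Dusp1* again, with *Ddit4* at 0.98 ± 0.571 SD and *Errfi1* at 0.98 ± 0.571 SD, each over the median of water in 7 of 7 VAAM mice. Among sex steroid receptors and enzymes 1 of 18 passed, *Hsd17b1*, which makes estradiol (1.25 ± 0.593 SD, exact p 0.0414), and the estrogen receptor *Esr1* stood at 1.03 ± 0.574 SD (exact p 0.0822). Circadian clock genes gave 0 of 20, with 15 lower means and a median of −0.22 SD (11 and −0.11 SD without VAAM mouse 1). *Cry2* stood at −0.96 ± 0.57 SD and *Nr1d1* at −0.67 ± 0.552 SD, while *Per1*, which also belongs to the immediate early list, stood at 0.84 ± 0.561 SD.

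The agent is a mixture of amino acids, so genes that sense, carry and break them down were read as well. The targets of ATF4, the transcription factor of amino acid shortage, gave 1 of 27 past the threshold, *Atf3*, with *Atf4* itself at 0.93 ± 0.567 SD (exact p 0.0991) and a list median of 0.11 SD. In glycine, proline and branched-chain amino acid metabolism 1 of 36 passed, *Gldc* of the glycine cleavage system (1.28 ± 0.595 SD, exact p 0.0309, 7 of 7 VAAM mice above the water median). The mitochondrial serine and glycine enzyme *Shmt2* stood at 0.91 ± 0.566 SD. The list median was −0.14 SD, and 0.21 SD without VAAM mouse 1. Of 34 amino acid transporters 0 passed, and the aromatic amino acid carrier *Slc16a10* had the highest difference (1.09 ± 0.579 SD, unadjusted limma p 0.0589 and exact p 0.00874). The mTOR complexes and their inputs gave 1 of 38, *Tsc2*, the brake on mTORC1 (−1.73 ± 0.641 SD, exact p 0.00991). Its water values lay between −1.47 and 1.24 SD and its VAAM values between −2.998 and −0.35 SD, below the water median in all 7 VAAM mice. The leucine sensor *Sesn2* stood at 0.87 ± 0.563 SD and *Sesn1* at −0.85 ± 0.562 SD.

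Markers of the supporting cells had lower means in the VAAM group. All 12 endothelial markers did (median −0.59 SD), of which 0 passed an unadjusted p under 0.05; the vascular cadherin *Cdh5* stood at −1.13 ± 0.582 SD (unadjusted limma p 0.0511, exact p 0.0262) and the angiopoietin receptor *Tek* at −1.03 ± 0.574 SD, and for both of them 0 of 7 VAAM mice exceeded the water median. All 11 markers of preadipocytes and fibroblasts did as well (median −0.64 SD), and 2 were lower at that threshold, the progenitor antigen *Cd34* (−1.39 ± 0.605 SD) and the preadipocyte factor *Zfp423* (−1.21 ± 0.589 SD). Of 10 mesothelial markers 9 had a lower mean (median −0.81 SD), and mesothelin, *Msln*, passed (−1.20 ± 0.588 SD). Extracellular matrix genes gave 1 of 39, the basement membrane collagen *Col18a1* (−1.33 ± 0.6 SD), with 32 lower means and a median of −0.39 SD. VAAM mouse 1 lay at −2.19 SD in the endothelial mean, at −1.51 SD in the preadipocyte mean and at −1.95 SD in the matrix mean. Without it the medians were −0.33 SD for endothelium, −0.53 SD for preadipocytes, −0.63 SD for mesothelium and −0.16 SD for matrix. Over the 14 mice, which share their libraries, the epididymis marker mean correlated with the endothelial mean at −0.87, with the matrix mean at −0.82, with the preadipocyte mean at −0.75 and with the mesothelial mean at −0.17. With VAAM mouse 1 left out the 4 correlations were −0.67, −0.51, −0.43 and 0.10. The part of the epididymis markers in the lower means was not tested. Smooth muscle and pericyte markers (0 of 10, median −0.20 SD) and TGF beta signalling genes (0 of 34, median −0.10 SD, and 0.01 SD without VAAM mouse 1) had no member past the threshold.

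All 10 T cell markers had higher means, with a median of 0.67 SD (1.02 SD without VAAM mouse 1), and 1 of them, the co-receptor *Cd4*, passed an unadjusted p under 0.05 (1.32 ± 0.599 SD, exact p 0.0361). The mean of the 10 markers lay between −0.85 and 0.13 SD in the water mice and between −0.71 and 1.78 SD in the VAAM mice, in which VAAM mice 5, 3 and 7 were highest and 3 others lay within the water range. Antigen presentation gave 0 of 9 (median 0.49 SD, and 1.07 SD without VAAM mouse 1). Macrophage markers gave 0 of 14 with a median of −0.01 SD, which was 0.52 SD with 13 higher means without VAAM mouse 1. Interferon response genes (0 of 20, median −0.06 SD, and 0.22 SD with 17 higher means without VAAM mouse 1), cell cycle genes (0 of 25, median 0.15 SD) and mast cell and granulocyte markers (0 of 9, median 0.24 SD) had no member past the threshold, and heat shock chaperones had 1 of 24, *Hspb3*.

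**Figure D3:**
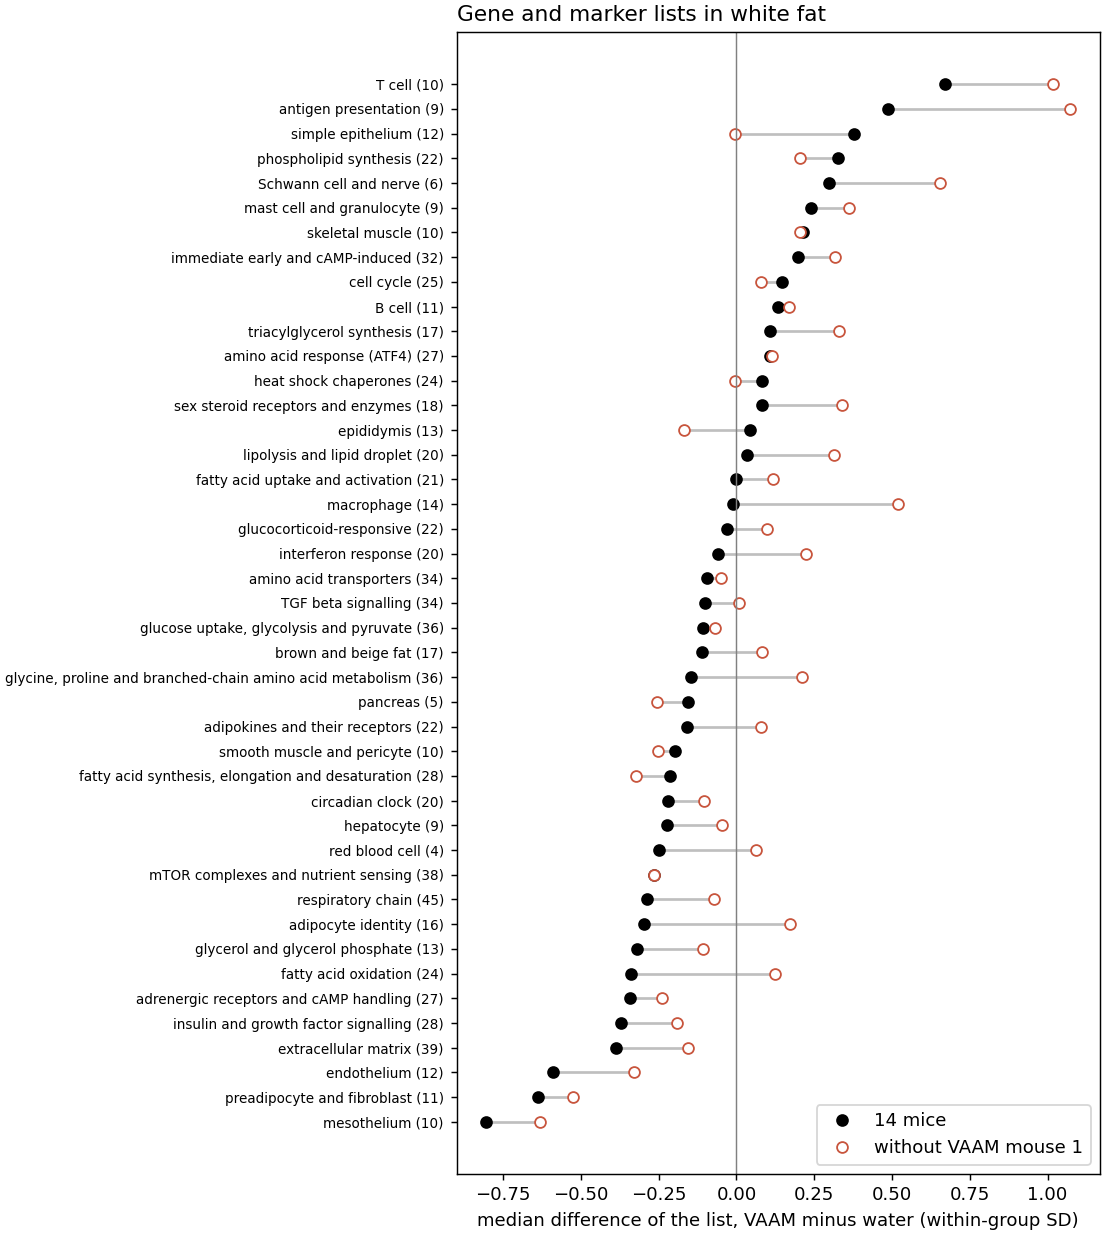
Median difference of each gene or marker list in WAT (horizontal axis, VAAM minus water in within-group SD), with the number of measured genes in brackets; filled points use 14 mice and open points leave out VAAM mouse 1. The median changes sign without this mouse in 14 of 43 lists, 11 of them from lower to higher, while T cell (0.67 and 1.02 SD) and mesothelium (−0.81 and −0.63 SD) keep theirs.

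Against this narrow background, a small set of genes varied widely between mice. Of the 18193 genes, 238 had a range over 0.1 on the log2 scale over the 14 WAT arrays, and 61 a range over 1. The 10 with the widest range were *Lcn5*, *Spink8*, *Adam7*, *Slc38a5*, *Epp13*, *Muc15*, *C4bp*, *Cst11*, *Defb42* and *Pate6*, several of them genes known from the epididymis, the duct in which sperm mature. That tissue was not measured in this series, and in liver and BAT each of these 10 genes had the same value to 2 decimals in all 14 mice. A constant value is not a low one, as *C4bp* stood at 12.42 in every liver. Such constancy is also common on this scale, where most probe sets have almost no spread. *Lcn5*, which encodes a retinoid-binding lipocalin of the epididymis, had deposited values of 11.06, 8.00, 6.34, 6.44, 6.39, 6.396 and 6.32 in water mice 1 to 7, and of 18.94, 14.45, 11.82, 11.64, 10.66, 11.63 and 9.90 in VAAM mice 1 to 7. All VAAM mice were above 6 of the 7 water mice, and VAAM mice 5 and 7 were below water mouse 1. The difference was 2.16 ± 0.693 SD (exact p 0.00175). The value of 18.94 is the highest of WAT, where no other probe set exceeded 14.78. Of the 13 measured epididymis markers, 7 had a higher and 6 a lower mean, with a median of 0.04 SD. Only *Lcn5* passed an unadjusted limma p under 0.05. Without VAAM mouse 1 the median was −0.17 SD, with 5 higher and 8 lower means. Without water mice 1 and 2 and VAAM mouse 1, a choice made after seeing the data, it was 1.21 SD, with 12 higher and 1 lower.

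Part of the genes with a wide range followed 1 of 3 patterns over the mice, each shown by 1 gene chosen after the values had been seen. Of the 238 genes, 5 (*Lcn5* included) were most like *Lcn5*, 53 most like *Lcn8* and 47 most like *Epcam*, at a Pearson correlation over 0.9 across the 14 mice, which share their libraries, and 133 were like none. In the first pattern are *Epp13*, *Pate6*, *Lypd8* and *Spink12*. *Epp13* had a water range of 6.43 to 8.15 and a VAAM range of 7.37 to 13.16 (1.36 ± 0.603 SD, exact p 0.00408). The serpin gene *Serpina1f*, below the limit of 0.9, lay between 5.99 and 6.11 in all 7 water mice and at 11.02, 7.78, 6.86, 6.74, 6.59, 6.74 and 6.55 in VAAM mice 1 to 7. Water mice 1 and 2 were therefore at the level of the other water mice for *Serpina1f*, although they were high for *Lcn5*. The defensin gene *Defb15* showed a smaller step, from 6.45 to 6.67 in water and from 6.59 to 8.30 in VAAM.

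In the second pattern water mice 1 and 2 were high as well as VAAM mouse 1, to an extent that differed between genes. *C4bp* stood at 10.33 and 8.82 in water mice 1 and 2 and at 12.73 in VAAM mouse 1, while for *Lcn8* the values were closer. *Lcn8* stood at 13.39 and 12.60 in water mice 1 and 2, at 13.21 in VAAM mouse 1 and at 10.25 in VAAM mouse 2, and between 7.96 and 8.84 in the other 10 mice. Its difference between the groups was −0.12 ± 0.535 SD (exact p 0.909). *Adam7*, a membrane protein of sperm and epididymis, stood at 14.16, 12.17 and 14.45 in the same 3 mice. In the third pattern the epithelial adhesion gene *Epcam*, the claudin gene *Cldn2* and *Cuzd1* were also raised in mice that were low for *Lcn8*. *Cuzd1* ran from 7.21 to 11.40 in water and from 7.60 to 12.01 in VAAM, with 9.29 in water mouse 7 and 10.07 in VAAM mouse 4. Water mouse 2 had the highest levels of 2 genes of the testis, chosen after their values had been seen: *Cyp17a1*, an enzyme of androgen synthesis, stood at 7.55 in it and between 6.13 and 6.31 in the other mice. The lactate dehydrogenase of sperm, *Ldhc*, stood at 6.86 in it, at 6.59 in VAAM mouse 1 and between 6.48 and 6.51 in the other 12 mice.

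**Figure D4:**
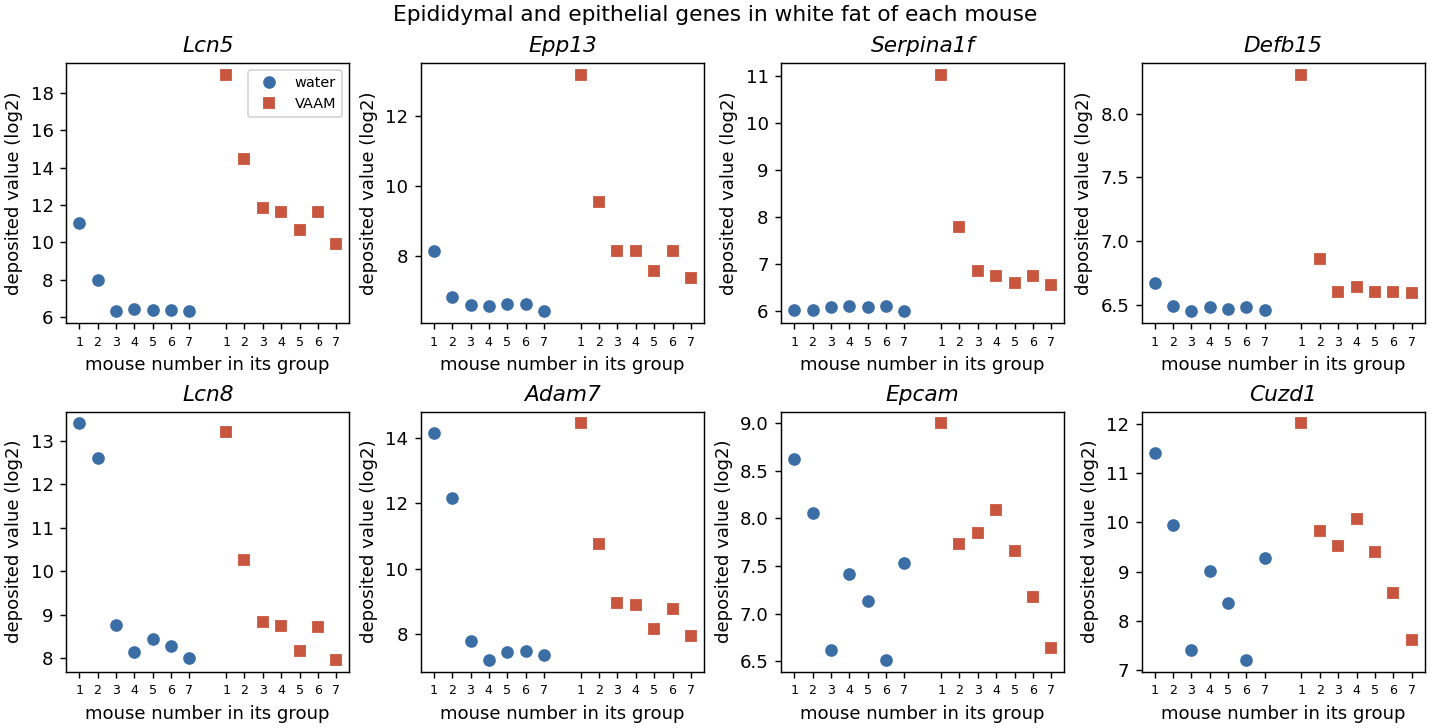
Deposited value on the log2 scale (vertical axis) of 8 genes in WAT of each mouse, by its number within the group (horizontal axis); circles are water mice and squares VAAM mice. *Lcn5* lies above 9.9 in all VAAM mice and in water mouse 1, *Serpina1f* separates the groups, *Lcn8* and *Adam7* are high in water mice 1 and 2 and VAAM mouse 1, and *Epcam* and *Cuzd1* vary in both groups.

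Other genes took steps that fell on the same numbered mice in several tissues. *Tmem45b*, a transmembrane protein gene, stood at 7.39 and 7.44 in WAT of water mice 4 and 5 and between 10.34 and 11.52 in the other 12, and in BAT at 7.58 and 7.16 in mice of the same numbers and between 10.60 and 11.58 in the others. *Sdhd*, a subunit of succinate dehydrogenase, was lowest in water mouse 2, at 6.58 in WAT, 6.77 in liver and 7.56 in BAT, where the lowest of the other mice stood at 7.43, 8.08 and 9.48. *Gdpd3*, a lysophospholipase D gene, had a high level in water mice 1, 3, 6 and 7 and in VAAM mice 3 and 7, from 7.87 to 8.03 in WAT, and a low level of 7.17 to 7.24 in the other 8, and the same 6 mice were the high ones in liver and in BAT. The class II antigen gene *H2-Eb1* was lowest in water mouse 6 and VAAM mouse 2 in WAT (8.18 and 8.19). Over the 14 mice, 57 of 45037 probe sets, of 43 named genes, had deviations from the group means that correlated above 0.9 in each pair of tissues. The labels do not say that a number marks the same animal in the 3 tissues. Within their group, 11 of 14 WAT arrays correlated best with the BAT array of their own number. With liver it was 7 of 14. The steps did not follow the treatment: the differences were 0.55 ± 0.546 SD for *Tmem45b*, 0.60 ± 0.548 SD for *Sdhd* and −0.65 ± 0.551 SD for *Gdpd3*.

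**Figure D5:**
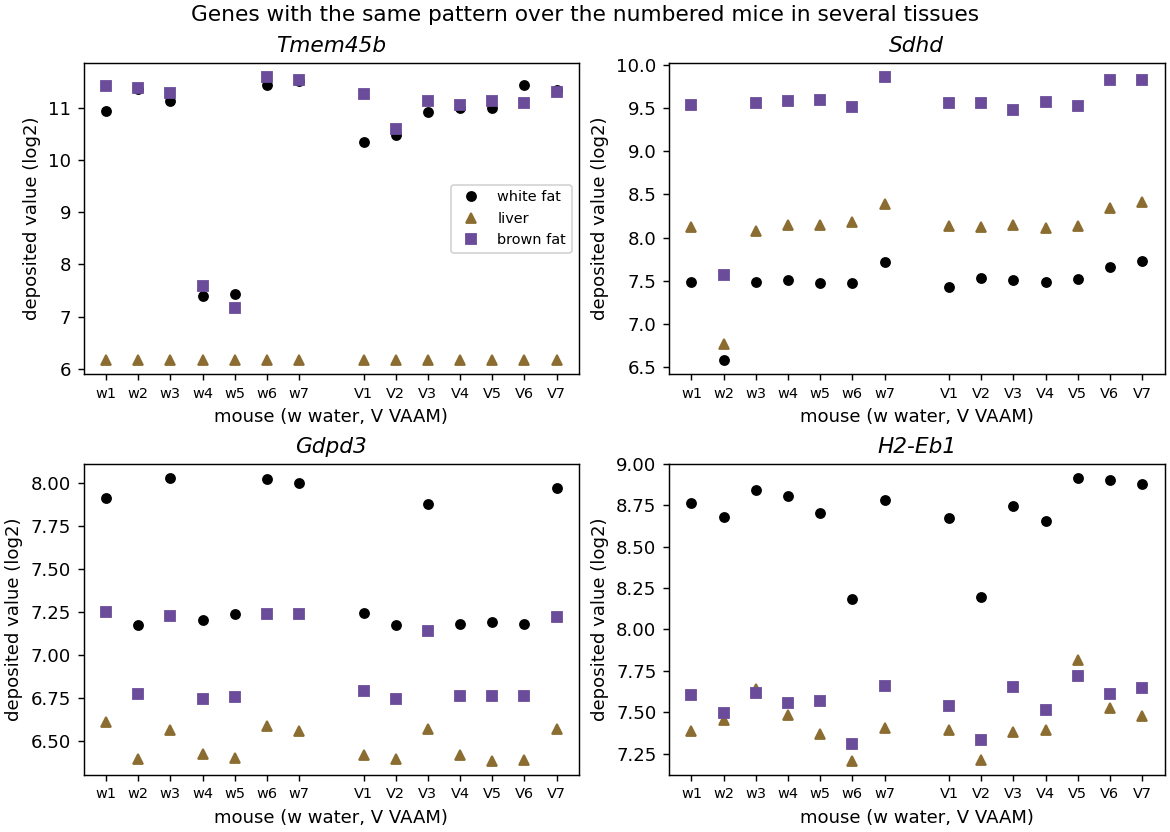
Deposited value on the log2 scale (vertical axis) of 4 genes in WAT (circles), liver (triangles) and BAT (squares) of the mice as numbered in the labels (horizontal axis, w water and V VAAM). *Tmem45b* is low in water mice 4 and 5 in WAT and BAT and near 6.17 in every liver, and the low *Sdhd* value of water mouse 2 recurs in the 3 tissues.

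To ask whether WAT responded otherwise than the other tissues, the VAAM difference in WAT was tested against that in liver and in BAT. Each tissue was scaled to its own within-group SD, and ordinary (unmoderated) t statistics were used. Unadjusted shares from this test are not comparable with the limma shares in WAT. The arrays were treated as independent, although the tissues came from the same mice. Like differences in several tissues are therefore not separate replications. Against liver, 0 of 45037 probe sets passed an adjusted p under 0.05 (0%, smallest adjusted p 0.174) and 3846 an unadjusted one (8.54%). Against BAT these were 0 (0%, smallest adjusted p 0.735) and 1912 (4.25%). *Sik1* had differences of 1.64 SD in WAT, 1.61 SD in liver and 1.69 SD in BAT, and *Dusp1* of 1.51, 1.63 and 1.13 SD. For neither gene did WAT differ from liver or BAT at an adjusted p under 0.05 by the unmoderated t test. *Egr3* had 1.65 SD in WAT, −0.96 SD in liver and 0.16 SD in BAT, with an adjusted p of 0.370 for WAT against liver by the same t test. *Gpd2* stood at −1.49, −1.18 and −1.54 SD and *Adipor1* at −1.69, 0.33 and −0.87 SD. *Srrm4os* stood at 3.46, 0.44 and −0.13 SD, and its difference of 3.59 SD between WAT and BAT had the smallest adjusted p of that comparison among the genes named here, 0.735.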

How the data were processed

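WAT RNA of 14 mice was hybridised to Affymetrix mouse genome arrays, 1 per mouse. The authors used distribution free weighted (DFW) summarization in R, and the deposited values are read as log2, although no source names the base. The paper's methods and the submitters' processing notes differ on the R version (the notes give 2.7.2). Whether the 3 tissues were summarized together is not given in the sources used here. Of 45101 rows, 64 controls were left out. Of the other 45037 probe sets, 34945 name 1 gene, 932 several and 9160 none, by GEO's annotation with symbols updated through RefSeq. Of 902 listed genes, 823 were measured. The number of arrays limits the precision, and scanner depth has no counterpart here.

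Groups were compared with limma 3.58.1 in R 4.3.3 (lmFit and eBayes, threshold 0.05), and by rank products, the authors' method, over 49 pairs with 50 permutations, as an alternative. The comparison of WAT with liver and BAT used lmFit with ordinary t statistics, without eBayes. Exact p values cover all 3432 divisions of the mice. Tables and figures used Python 3.11.15, numpy 2.4.6, pandas 2.3.3, scipy 1.17.1 and matplotlib 3.10.9. The tests were tried on simulated data. Named are the 12 higher and 12 lower genes with the smallest p, the 4 with the smallest p and both extremes of each of 27 gene and 16 marker lists, the adipocyte genes, the genes of the study's WAT panel and the 10 with the widest range. The arrays were taken by their titles, but the comparison and the gene lists were chosen with earlier results of these data known. The alternatives were the replicate block, filters, scalings, priors, array weights, an epididymis covariate, 1 fit over the tissues and leaving out arrays.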

Additional observations from a re-analysis of the deposited data

Results flagged for a closer look

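In each group of 7 mice, the highest or lowest mouse was singled out where its gap to the nearest other mouse, as a share of the range of the group, passed Dixon's critical value. Of 152 groups tested, 29 did, and 19 of the 29 were VAAM mouse 1. Chance marks about 1 in 20 groups, but that rate does not hold for the 10 genes chosen for the widest range, which hold 12 of the 29, since 1 outlying mouse widens a range. The levels of single genes share mice and are not independent, and no cause was tested.

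Among the genes with the smallest p, the share was 0.587 for *Igll1* in water mouse 7, 0.581 for *Hspb3* in VAAM mouse 7, 0.647 for *Lcn5* in water mouse 1, 0.650 for *Sfmbt1* in VAAM mouse 5 and 0.745 for *Flii* in VAAM mouse 1. *Ube2b* had a high water mouse 4 (0.711) and a low VAAM mouse 7 (0.674).

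Among the genes with the widest range, VAAM mouse 1 was the highest of its group at 0.607 for *Spink8*, 0.5681 for *Adam7*, 0.580 for *Slc38a5*, 0.626 for *Epp13*, 0.633 for *Muc15*, 0.685 for *C4bp*, 0.614 for *Cst11* and 0.681 for *Pate6*. Water mouse 1 was the highest of its group at 0.601 for *Spink8*, 0.764 for *Epp13* and 0.876 for *Pate6*.

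Among the list means, VAAM mouse 1 was the lowest of its group for adipocyte identity (0.716), adipokines and their receptors (0.705), lipolysis and lipid droplet (0.665), fatty acid uptake and activation (0.606), fatty acid oxidation (0.687), extracellular matrix (0.849), endothelium (0.768) and preadipocytes and fibroblasts (0.770). It was the highest for simple epithelium (0.616) and epididymis (0.699). The interferon response mean of water mouse 3 was the highest of the water group (0.620).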

How the results depend on the processing

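No probe set passed an adjusted p under 0.05 by limma under filters, scalings, priors, array weights or with any 1 array left out (0 to 0 in each direction). It was otherwise in 1 fit over 42 arrays (67 higher, 62 lower) and with the epididymis markers as a covariate (1 higher, *Lcn5*). *Lcn5* is itself among the markers averaged in that covariate, so this call is not independent of it. By rank products it was otherwise on the deposited values (906 higher, 664 lower), but not once each probe set was scaled to its SD (0). At an unadjusted p under 0.05, the 744 higher and 948 lower probe sets became 230 and 613 among those with means above the median, 5 and 0 among those with a range over 0.1, where fewer were tested, 1611 and 1797 in 1 fit over 42 arrays, and 14 and 74 after the deposited values were quantile normalized again. Without water mice 1 and 2 and VAAM mouse 1, an alternative chosen after seeing the data, 1644 were lower. With 1 array left out, 660 to 964 were higher and 702 to 1221 lower, and 8 to 18 genes lay wholly above and 4 to 10 wholly below, where fewer mice make separation easier. The causes of the other changes were not tested.

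The replicate numbers were not taken to pair the water and VAAM mice, since no label ties them and not every pair correlated. The deviations of WAT mice with the same number correlated between −0.0786 and 0.478, and 2 of 7 correlated best with their own number, although mice 1 and 2 were the highest of both groups for *Lcn5*, *Spink8* and *Slc38a5*. With the number as a replicate block, 1472 probe sets were lower and 1062 higher at an unadjusted p under 0.05, and 0 passed the adjusted threshold in WAT (smallest adjusted p 0.443, *Lcn5*, against 0.9998 without it) or in its comparison with liver and BAT. Of the named genes, 55 passed an unadjusted p under 0.05, and 0 of them changed sign under 23 settings, which did not include the quantile step on the deposited values. The 55 were picked by p on these same arrays, and many settings left out 1 array or reweighted the same values. A change of sign was thus unlikely from the start, and the count of 0 is no separate support. In 1 fit over 42 arrays *Adipor1*, *Sik1*, *Dusp1* and *Atf3* no longer passed. The quantile step on the deposited values turned the sign of 20 of the 55, all of them among the 25 higher ones, 11 of the 12 higher lead genes included.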
